A study of Mus musculus with 6 samples.

Results

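The 36 genes described here are cell cycle genes: 14 whose products act in S phase, when DNA is copied, and 22 whose products act in G2 and mitosis. They were taken by symbol from the 31053 genes of the count tables, and all 36 were found. They were followed in single cells of mouse pancreatic lymph nodes, the nodes that drain the pancreas. Whole-node cell suspensions of 6 mice were measured by droplet single-cell RNA sequencing, 1 library per mouse. All 6 mice had a floxed gene. The 3 controls lacked CD4-Cre (Cre-negative 1 to 3), and the other 3 had it (Cre-positive 1 to 3). The Cd4 promoter drives Cre in developing T cells at a stage shared by the CD4 and CD8 lineages, so both lineages are targeted and B cells are not. Strain, sex and age are not given in the labels used here.

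A resting lymphocyte sits outside the cell cycle. On activation it loads the Mcm2-7 helicase onto DNA with the help of Cdc6, makes nucleotides with Rrm1, Rrm2, Tyms and Tk1, copies its DNA with Pcna as the sliding clamp, and then makes the cyclins, kinases and motors that build the spindle and pull the chromosomes apart. E2F factors switch on the S phase genes, and the DREAM and MMB complexes act on the G2 and mitosis genes through a short promoter element, the cell cycle genes homology region (CHR). In a lymph node most T and B cells rest, while B cells of germinal centres divide fast as they mutate their antibody genes.

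The libraries held 8209 to 10936 cell barcodes and 47149014 to 61321105 unique molecular identifiers (UMIs, 1 per captured RNA molecule), and 51777 cells passed the filters. Pairs of libraries shared 0.195% to 0.393% of the barcodes of the smaller library. Cells were put in classes by the UMIs of marker genes. Per mouse the gates held 1978 to 2673 conventional CD4 T cells, 1222 to 2014 CD8 T cells, 276 to 366 regulatory T cells, 34 to 74 germinal centre B cells and 1368 to 2714 other B cells. Genes outside the gates went with the labels: Ctla4 was detected in 81.1% of regulatory T cells and 15.2% of conventional CD4 T cells, Fas in 47.2% of germinal centre B cells and 3.41% of other B cells, and Cd38, which germinal centre B cells lose, in 26.6% and 43.2%. The library of Cre-negative 1 was the deepest per cell, with a median of 5599 UMIs against 4244 to 5078 in the other 5.

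The promoters of the members differ by phase in the words they carry, and 6 are shown, 4 of G2/M and 2 of S phase genes described below. RefSeq promoter windows on GRCm38.p6, from 250 bases before to 50 after the gene start, were matched for 30 members. The CHR word TTTGAA was present on either strand in 13 of 18 G2/M windows, in 1 of 12 S phase windows and in 17.89% of all 32851 windows. An E2F word (TTTCCCGC, TTTCGCGC, TTTGCCGC or TTTGGCGC, either strand) was present in 5 of 12 S phase windows, in 1 of 18 G2/M windows and in 2.265% of all. CCAAT, the word of the factor NF-Y, was present in 16 of 18, 8 of 12 and 37.41%. In the stretches that follow, each read along its gene's strand, capitals mark CHR and E2F words. The capitals of Top2a are a CHR word read on the opposite strand, and the E2F words of Mcm5 and the first of Mcm6 overlap a match on the opposite strand. In GENCODE M21, 9 bases of the Cdc20 stretch and 26 of the Cdk1 stretch lie in an annotated exon, and the other 4 stretches lie outside annotated exons. Mki67 encodes the Ki-67 chromosome coat protein, Top2a the topoisomerase that untangles chromosomes, Cdc20 the activator of the anaphase-promoting complex and Cdk1 the mitotic kinase.
Mki67 (chr7:135716460-135716579, minus strand): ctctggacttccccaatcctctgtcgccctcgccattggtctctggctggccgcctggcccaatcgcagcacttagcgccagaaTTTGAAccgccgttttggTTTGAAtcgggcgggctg
Top2a (chr11:99024190-99024309, minus strand): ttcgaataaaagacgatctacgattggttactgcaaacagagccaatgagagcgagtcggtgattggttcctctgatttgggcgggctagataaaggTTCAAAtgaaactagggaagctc
Cdc20 (chr4:118437344-118437463, minus strand): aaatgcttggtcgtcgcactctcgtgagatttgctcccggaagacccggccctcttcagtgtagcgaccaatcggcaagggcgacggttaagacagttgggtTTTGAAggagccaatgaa
Cdk1 (chr10:69352913-69353062, minus strand): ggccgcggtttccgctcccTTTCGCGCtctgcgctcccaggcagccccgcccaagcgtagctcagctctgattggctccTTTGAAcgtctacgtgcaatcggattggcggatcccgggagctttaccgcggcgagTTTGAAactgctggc
Mcm5 (chr8:75109329-75109448, plus strand): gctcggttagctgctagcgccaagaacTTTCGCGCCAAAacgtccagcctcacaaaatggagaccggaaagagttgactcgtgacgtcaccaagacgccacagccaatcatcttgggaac
Mcm6 (chr1:128359736-128359855, minus strand): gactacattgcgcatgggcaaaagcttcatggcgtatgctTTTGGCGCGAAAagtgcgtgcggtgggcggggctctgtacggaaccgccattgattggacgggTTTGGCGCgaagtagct

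Most cells carried few of the 36 genes. Of the 51777 cells, 14746 had none detected, 28643 had 1 or 2, 7335 had 3 to 5 and 555 (1.07%) had 10 or more, where detected means at least 1 UMI. The number of genes per cell fell steeply to about 10 in the T cells and other B cells and then ran on as a thin tail to 35 or 36, while germinal centre B cells were spread over the whole range. The composition changed along the range. In cells with 3 to 5 of the genes, 71.4% of their UMIs came from the S phase genes and Mki67 was detected in 2.14%. In cells with 20 or more, 31.2% came from the S phase genes, Mki67 was detected in 93.0% and Top2a in 99.0%. The cells were binned by these same genes, of which only 14 are S phase genes, so part of this change follows from the bins.

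**Figure D1:**
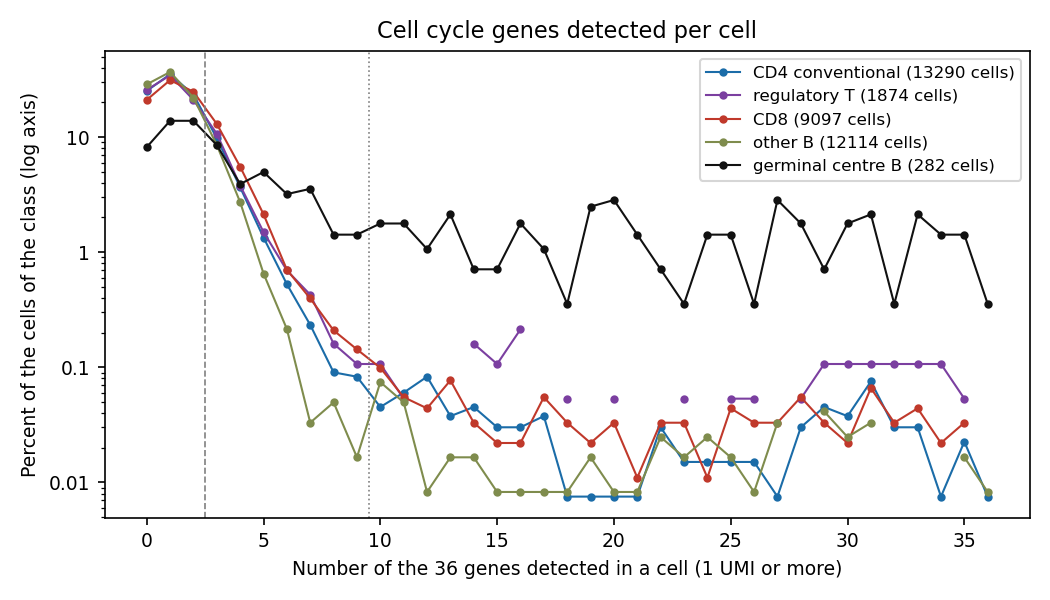
Percent of the cells of each class (vertical log axis) against the number of the 36 genes detected in a cell, all mice pooled, with dashed and dotted lines at 3 and 10 genes; points with no cells are left out. The T cells and other B cells drop steeply to about 10 genes and keep a thin tail, whereas 105 of 282 germinal centre B cells (black) have 10 or more.

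Detection of 3 or more genes, the threshold set for a cell with cell cycle transcripts, was common in resting cells. Naive CD4 T cells, gated by UMIs of naive T cell genes, served as a reference for cells outside the cycle. Of these, 997 of 5544 had 3 or more genes, 14.5% to 21.0% per mouse at median depths of 4813 to 6180 UMIs. Conventional CD4 T cells as a whole had 13.9% to 21.8%, a range that overlaps that of the naive reference and passes it at both ends. After thinning every cell to 2000 UMIs the reference fell to 1.00% to 3.19%. With 10 or more genes it was 36 of 5544 cells, 0.334% to 1.37% per mouse. Shares at 3 genes are therefore given beside the thinned share and beside the share with 10 or more genes, a threshold chosen after these values were seen.

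The members differed in how far they were kept to cells with many of them. For 21 members (18 G2/M genes and the S phase genes Cdc6, Rrm2 and Tk1), 44.2% to 87.0% of the cells in which they were detected had 10 or more of the 36 genes, and 0.379% to 1.17% of naive CD4 cells had a UMI. Bub1, a kinase of the spindle checkpoint, was detected in 269 cells, 87.0% of them with 10 or more of the genes. Hmmr, a spindle protein, reached 84.8%, Ccna2, the S and G2 cyclin, 75.0%, Cdk1 62.5% of 597 cells, and Mki67 48.1% of 767 cells. For the other 15 members (11 S phase genes with Cdc20, Aurka, Top2a and Cenpa) the share was 2.73% to 27.4%, and 1.28% to 27.6% of naive CD4 cells had a UMI. Top2a was detected in 2436 cells, of which 18.7% had 10 or more genes. Mcm6 reached 5.74% of 7671 cells. Cenpa, the centromeric histone, was the most widely detected member, in 13131 cells (25.4% of all) and in 27.6% of naive CD4 cells. In the other B cells Cenpa was found in 32.9%, more often than in any T class. Since each gene counts towards the 10, these shares describe the genes and are not tests.

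**Figure D2:**
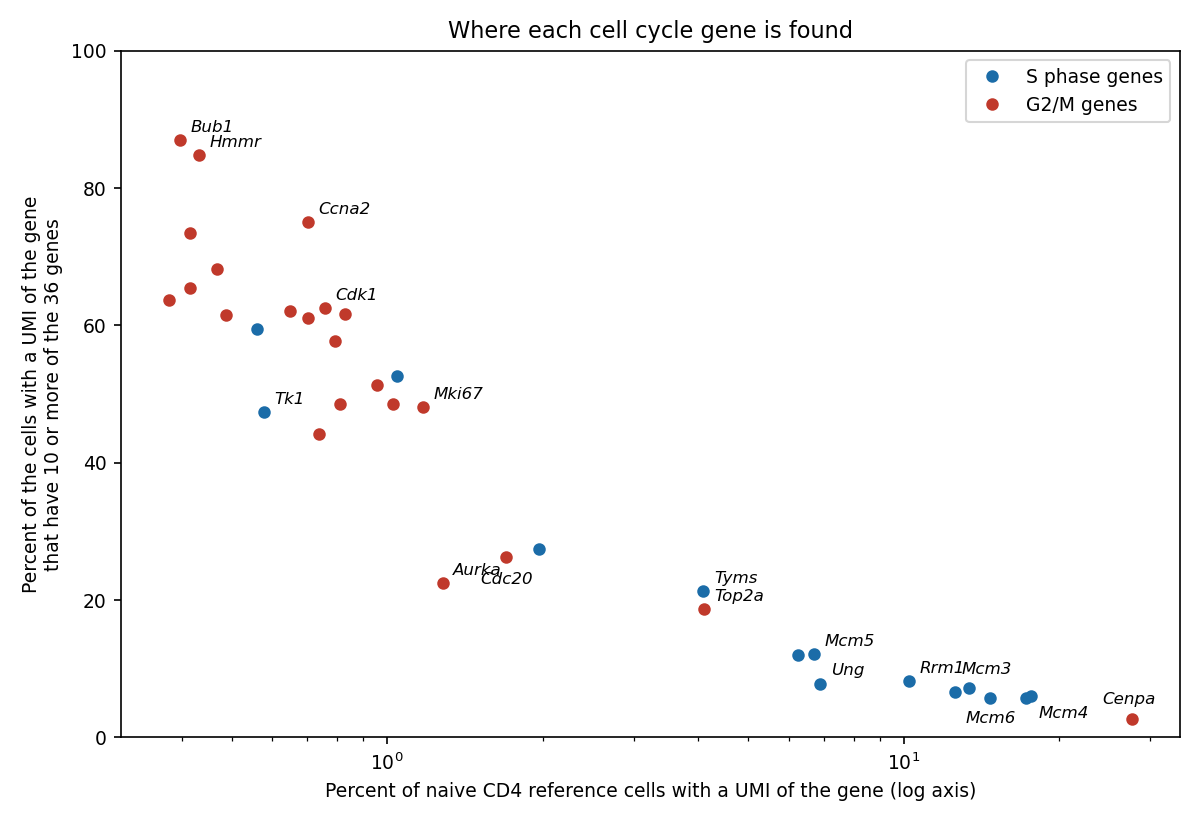
Each point is 1 of the 36 genes: the percent of naive CD4 reference cells with a UMI of the gene (horizontal log axis) against the percent of the cells detecting it that have 10 or more of the 36 genes (vertical axis), all mice pooled. The 18 G2/M genes from Kif20a (44.2%) to Bub1 (87.0%) stand at the upper left, and the Mcm genes and Cenpa (2.73%) at the lower right.

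Germinal centre B cells had a far higher share of cells with cell cycle transcripts than any other class. The share with 3 or more genes was 59.6%, 72.7% and 55.9% in Cre-negative mice 1 to 3 and 74.3%, 63.2% and 51.1% in Cre-positive mice 1 to 3 (62.8% ± 9.23, SD, n = 6). With 34 to 74 such cells per mouse the counting error is wide: 19 of 34 cells in Cre-negative 3 gave an exact (Clopper-Pearson) 95% interval of 37.9% to 72.8%, which covers counting error only. The other means were 23.2% ± 3.76 in CD8 T cells, 19.3% ± 4.40 in regulatory T cells, 16.5% ± 2.99 in conventional CD4 T cells and 13.0% ± 2.76 in other B cells (SD, n = 6).

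Depth differed between the classes and moved with these shares. Median UMIs per mouse were 7159 to 11831 in germinal centre B cells, 5424 to 7238 in CD8 T cells and 3879 to 5157 in other B cells. Cre-negative 1, the deepest library, had the highest share in the 3 T cell classes and in the other B cells. Cells thinned to 2000 UMIs gave 41.1% ± 14.2 in germinal centre B cells, 3.73% ± 1.14 in regulatory T cells, 2.5% ± 0.471 in CD8 T cells, 2.48% ± 0.434 in conventional CD4 T cells and 1.90% ± 0.459 in other B cells (SD, n = 6).

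Within the same mouse, germinal centre B cells were above each of the other 4 classes in 6 of 6 mice after thinning, by 37.3 to 39.2 percentage points on average. The exact two-sided sign-flip permutation test gave p = 0.03125 for each, the smallest that 6 mice allow, and 0.0625 after adjustment over the 10 pairs of classes. Other B cells were below regulatory T cells in 6 of 6 mice, a difference of -1.82 points (same exact p). This did not hold with the gates read from thinned cells. The remaining 5 pairs gave exact p of 0.0625 or more. CD8 and regulatory T cells changed order with depth: CD8 minus regulatory T was 3.91 points unthinned and -1.22 points thinned. With 10 or more genes at full depth the means were 36.4% ± 10.3 in germinal centre B cells, 1.70% ± 0.746 in regulatory T cells, 0.996% ± 0.371 in CD8 T cells, 0.787% ± 0.193 in conventional CD4 T cells and 0.482% ± 0.289 in other B cells. At that threshold regulatory T cells were above conventional CD4 T cells in 6 of 6 mice (0.910 points, exact sign-flip permutation p = 0.03125, adjusted 0.0446). The thinned germinal centre pairs had a higher adjusted p only because fewer pairs reached the smallest p there.

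The marker gates also depend on depth. When the gates were read from the thinned cells, germinal centre B cells stayed higher in 6 of 6 mice against each class (48.4% ± 18.3, SD, n = 6), and regulatory T cells stood at 2.13% ± 1.25 beside 2.40% ± 0.403 in conventional CD4 T cells. The difference of other B cells from regulatory T cells was then -0.0937 points, with other B cells higher in 3 of 6 mice (exact sign-flip permutation p = 0.906).

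**Figure D3:**
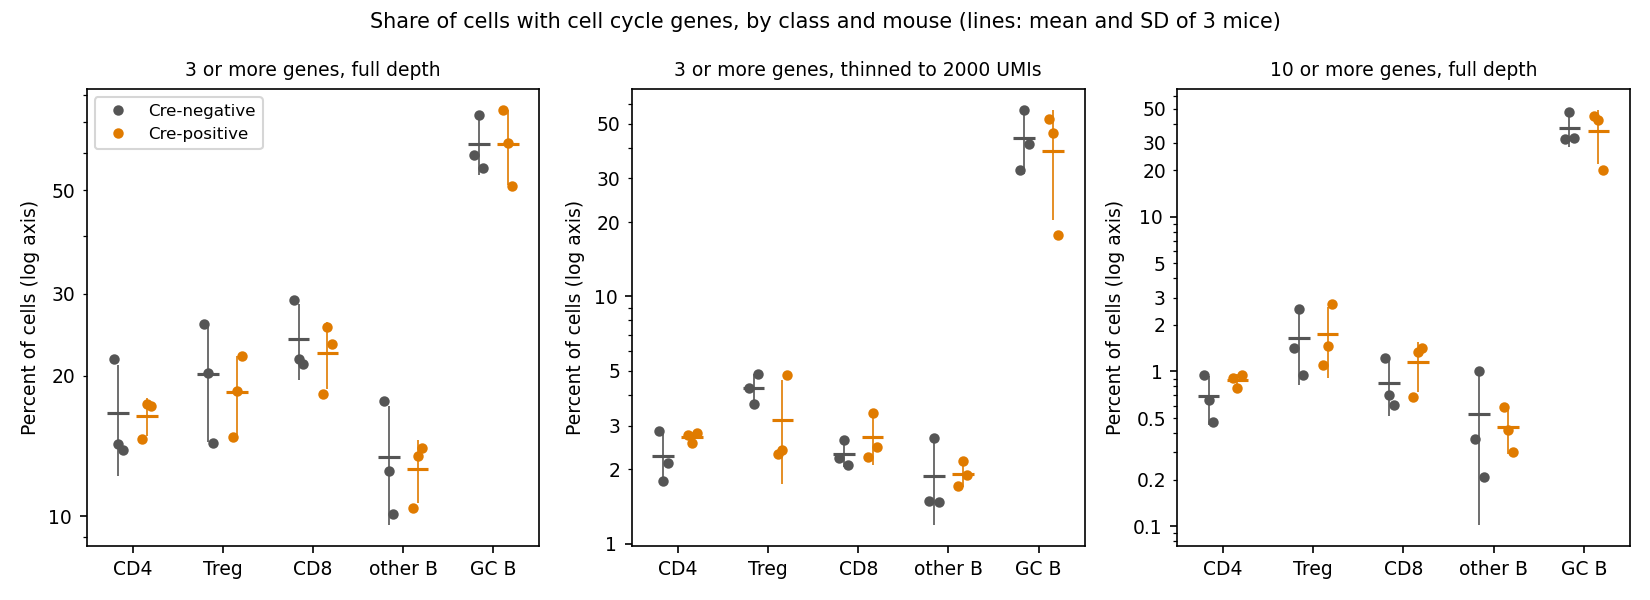
Percent of cells (log axes that differ between panels) with 3 or more of the genes at full depth (left), with 3 or more after thinning to 2000 UMIs (middle) and with 10 or more at full depth (right). Each point is 1 mouse, grey for Cre-negative and orange for Cre-positive, with the mean and SD of 3 mice; germinal centre B cells lie far above the rest in each panel and the genotypes overlap in each class.

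The levels of single members were also highest in germinal centre B cells, with Cenpa as an exception in 1 mouse. They are given as CPM, the UMIs summed per mouse and class and scaled to the sequencing depth. Of the 22 G2/M genes, 21 were higher in germinal centre B cells than in each other class in 6 of 6 mice, and so were the 14 S phase genes. Cenpa was the exception, in 5 of 6. The germinal centre mean over the next highest class had a median ratio of 9.17 for the G2/M genes and 3.62 for the S phase genes. In 33 of the 36 genes that next class was the regulatory T cells.

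Mki67 (ENSMUSG00000031004, chr7:135689784-135716361) stood at 328, 533 and 376 CPM in germinal centre B cells of Cre-negative mice 1 to 3 and at 492, 340 and 237 CPM in Cre-positive mice 1 to 3. In regulatory T cells Mki67 was 27.4, 83.6 and 21.8 CPM in Cre-negative and 41.8, 57.8 and 17.4 CPM in Cre-positive mice. Germinal centre B cells and regulatory T cells did not overlap, and within each the genotypes did. Mki67 was lower in conventional CD4 T cells (16.8 ± 6.13 CPM, SD, n = 6), CD8 T cells (11.4 ± 3.06) and other B cells (9.30 ± 3.72), and these 3 overlapped.

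Top2a (ENSMUSG00000020914, chr11:98992943-99024189) had 362, 433 and 383 CPM in germinal centre B cells of Cre-negative and 431, 331 and 244 CPM in those of Cre-positive mice. The other means were 55.3 ± 21.8 CPM in regulatory T cells, 30.3 ± 8.73 in conventional CD4 T cells, 24.5 ± 4.44 in CD8 T cells and 22.4 ± 6.31 in other B cells (SD, n = 6). The last 3 overlapped.

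The S phase genes spanned a narrower range. Mcm5 (ENSMUSG00000005410, chr8:75109569-75128439), a subunit of the replicative helicase, had 81.7, 139 and 125 CPM in germinal centre B cells of Cre-negative and 151, 219 and 120 CPM in those of Cre-positive mice. Its means elsewhere were 24.8 ± 5.19 CPM in regulatory T cells, 21.0 ± 2.56 in CD8 T cells, 18 ± 3.33 in conventional CD4 T cells and 17.8 ± 1.70 in other B cells. Pcna (ENSMUSG00000027342, chr2:132249162-132253314) was the flattest member beside Cenpa, at 57.5 ± 10.8 CPM in germinal centre B cells, 34.5 ± 8.03 in regulatory T cells, 27.0 ± 3.76 in conventional CD4 T cells, 24.9 ± 1.98 in CD8 T cells and 16.9 ± 2.48 in other B cells (SD, n = 6). For both genes the values of the germinal centre B cells lay above those of every other class.

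The balance of S phase against G2/M transcripts was taken as the percent of the UMIs of the 36 genes that came from the 14 S phase genes, in cells with 3 or more of the genes. It was 57.9% ± 5.83 in CD8 T cells, 50.8% ± 3.78 in conventional CD4 T cells, 48.5% ± 8.03 in other B cells, 48.4% ± 12.6 in regulatory T cells and 34.3% ± 11.6 in germinal centre B cells (SD, n = 6). Other B cells minus CD8 T cells was -9.44 points and germinal centre B cells minus CD8 T cells -23.6 points, each lower in 6 of 6 mice (exact sign-flip permutation p = 0.03125 each, adjusted 0.104 over 10 pairs). Neither passed the adjustment. After thinning, the differences were -3.40 points (lower in 4 of 6 mice) and -16.5 points (6 of 6). The second was -15.2 points at 5 or more genes (lower in 5 of 6) and -8.31 points at 10 or more (4 of 6). Germinal centre B cells minus conventional CD4 T cells went from -16.4 points at 3 or more genes to -1.64 at 10 or more. Against other B cells it went from -14.2 to 2.67 points (n = 5 at 10 or more). Among cells with 10 or more genes, germinal centre B cells (33.5% ± 12.3) thus lay beside conventional CD4 T cells (35.1% ± 4.39) and other B cells (32.9% ± 10.7).

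A few cells with very many G2/M UMIs weighed on the balance. In germinal centre B cells the 3 highest cells of a mouse carried 33.1% to 73.6% of the G2/M UMIs. With each cell counted equally the balance moved towards S phase in every class, to 46.4% ± 2.44 in Cre-negative and 48.7% ± 6.65 in Cre-positive germinal centre B cells (SD, n = 3).

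**Figure D4:**
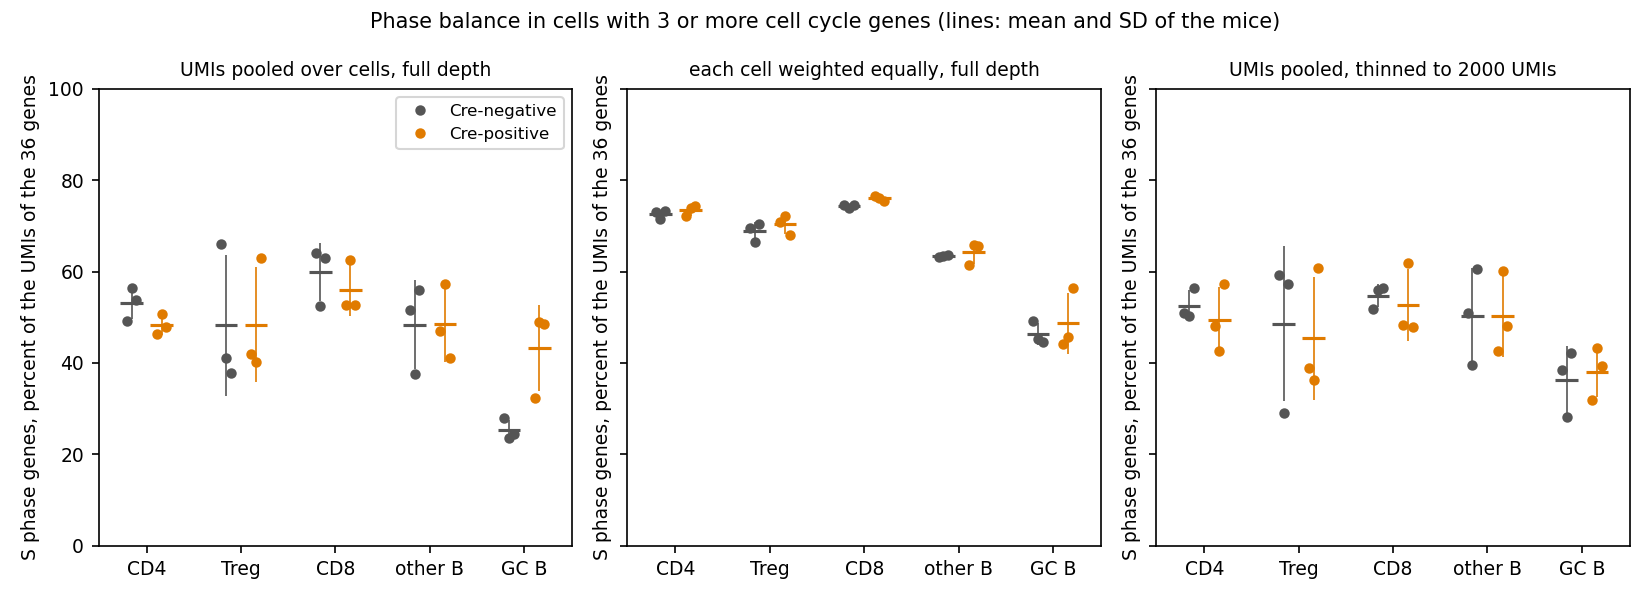
Percent of the UMIs of the 36 genes that came from the 14 S phase genes, in cells with 3 or more of the genes, per class and mouse (grey Cre-negative, orange Cre-positive, mean and SD of 3 mice). With UMIs pooled over cells (left) the germinal centre groups do not overlap, 25.3% against 43.3%; with each cell weighted equally (middle) or thinned to 2000 UMIs (right) they do.

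The comparison of genotypes asks whether deletion in T cells goes with a change in cycling cells. The share of cells with 3 or more genes overlapped between the groups in all 5 classes. It was 21.8%, 14.3% and 13.9% in Cre-negative and 14.6%, 17.4% and 17.2% in Cre-positive conventional CD4 T cells. The CD8 T cells had 29.1%, 21.7% and 21.2% against 18.3%, 25.5% and 23.4%. The groups overlapped in both, and Cre-negative 1 stood highest in both.

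In regulatory T cells the shares were 25.8%, 20.3% and 14.3% in Cre-negative and 14.8%, 18.5% and 22% in Cre-positive mice. In other B cells, outside the targeted lineage, they were 17.6%, 12.5% and 10.1% against 10.4%, 13.5% and 14%. Exact two-sided permutation tests of the 5 classes gave p of 0.7 to 1 (adjusted 1), where 3 mice against 3 cannot go below 0.1. Thinned, and with 10 or more genes, the groups overlapped in each class too. Conventional CD4 T cells with 10 or more genes numbered 19, 13 and 11 in Cre-negative and 19, 21 and 21 in Cre-positive mice. For CD8 T cells the numbers were 15, 10 and 9 against 11, 27 and 19. Pooled over mice there were 14 against 17 regulatory T cells, 27 against 31 other B cells and 47 against 58 germinal centre B cells. These are counts, and class sizes differed between mice. The S phase percent overlapped in 4 classes, with differences of -4.85 points in conventional CD4 T cells, -3.89 in CD8 T cells, 0.143 in regulatory T cells and 0.103 in other B cells (Cre-positive minus Cre-negative).

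Germinal centre B cells differed in the balance with UMIs pooled. The S phase percent was 27.9%, 23.6% and 24.5% in Cre-negative mice 1 to 3 and 32.4%, 49.0% and 48.5% in Cre-positive mice 1 to 3. The 18-point difference had the smallest p the design allows (exact permutation p = 0.1, adjusted 0.5 over the 5 classes). It was 1.86 points after thinning and 2.36 points with each cell weighted equally.

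Gene by gene, the UMIs summed per mouse and class were tested between genotypes with edgeR over all genes. No member passed an adjusted p of 0.05 in any class. Few genes passed at all: 1 of 11140 in conventional CD4 T cells (0.00898%), 0 of 8696 in regulatory T cells (0.00%), 5 of 10690 in CD8 T cells (0.0468%), 2 of 10636 in other B cells (0.0188%) and 0 of 5629 in germinal centre B cells (0.00%). They were Gh in conventional CD4 T cells, Aspm, Tiparp, Trim59, Tnfaip3 and Nrn1 in CD8 T cells, and Fcrl5 and Gm8879 in other B cells, named after their values were seen. DESeq2 called 0 genes in regulatory T cells and 3 in germinal centre B cells. Over all genes tested, an unadjusted p under 0.05 was found for 565 of 11140 in conventional CD4 T cells, 439 of 8696 in regulatory T cells, 724 of 10690 in CD8 T cells, 548 of 10636 in other B cells and 209 of 5629 in germinal centre B cells. Of the members tested, 5 of 36 in conventional CD4 T cells, 0 of 31 in regulatory T cells, 7 of 36 in CD8 T cells, 1 of 33 in other B cells and 6 of 36 in germinal centre B cells had an unadjusted p under 0.05.

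The fitted direction of the members was mostly upward in T cells, without a call. Higher estimates in Cre-positive mice were found for 32 of 36 in conventional CD4 T cells, among them 22 of 22 G2/M genes (median log2 fold change 0.46) and 10 of 14 S phase genes (0.13), beside a median of 0.00201 over all genes tested. The CD8 T cells also had 32 of 36, with 20 of 22 G2/M genes (median 0.43) and 12 of 14 S phase genes (0.12). In regulatory T cells it was 20 of 31 and in other B cells 22 of 33 (median 0.07). Members share cycling cells, so their estimates are not independent. Leaving out 1 mouse at a time moved the G2/M median between 0.25 and 0.92 in conventional CD4 T cells, between 0.19 and 0.61 in CD8 T cells between -0.25 and 0.82 in regulatory T cells and between -0.23 and 0.87 in other B cells. The G2/M median was 0.10 in conventional CD4 T cells at a 5% mitochondrial limit (19 of 22 higher) and 1.69 in CD8 T cells with stricter gates (15 of 16 higher). In these sums, a difference in the number of cycling cells and one in RNA per cycling cell cannot be told apart.

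The members of smallest p did not pass. Genes picked by p tend to have groups that do not overlap, and the share of all genes with such groups was not counted. Cdc20 in conventional CD4 T cells had 6.45, 4.03 and 4.70 CPM in Cre-negative and 7.02, 6.56 and 8.62 CPM in Cre-positive mice (log2 fold change 0.53, SE 0.18, edgeR adjusted p = 0.903). Its groups did not overlap, by a narrow margin. Mcm5 had 16.9, 16.9 and 13.8 CPM against 21.2, 16.6 and 22.8 CPM (0.34, SE 0.12, adjusted p = 0.907). Hmmr had 4.61, 2.11 and 2.18 CPM against 5.17, 4.55 and 4.47 CPM (0.63, SE 0.25, adjusted p = 0.921). For both of these Cre-negative and Cre-positive mice overlapped, and in Hmmr it was Cre-negative 1 that stood apart from its group.

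The 3 members of smallest p in CD8 T cells were mitotic genes. Ube2c, the ubiquitin-conjugating enzyme of the anaphase-promoting complex, had 5.61, 9.89 and 8.38 CPM in Cre-negative and 11.5, 12.2 and 15.4 CPM in Cre-positive mice (log2 fold change 0.71, SE 0.17, edgeR adjusted p = 0.333). Cenpf, a kinetochore protein, had 3.10, 6.92 and 3.53 CPM against 9.72, 6.94 and 7.90 CPM (0.85, SE 0.25, adjusted p = 0.481). Ccnb2, a mitotic cyclin, had 2.20, 2.64 and 2.87 CPM against 3.31, 3.89 and 7.46 CPM (0.90, SE 0.28, adjusted p = 0.487). Their groups did not overlap, for Cenpf only just, which their choice by smallest p favours. Since the share of all tested genes with such groups was not counted, this does not set these genes apart. Cenpf passed with stricter gates (adjusted p = 0.000280), without Cre-negative 2 (0.0275) and with no low-count filter (0.00410). Ube2c and Birc5 passed with no low-count filter (0.00112 and 0.0216), and Hmmr and Kif11 with stricter gates (0.0321 each). Kif11, a spindle motor, turned direction there, from a log2 fold change of -0.33 to 1.98.

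Aspm, a spindle pole gene outside the 36 and outside the gene lists, named after its value was seen, passed in CD8 T cells. It had 0.501, 1.10 and 0.441 CPM in Cre-negative mice, from 5, 10 and 4 UMIs, and 2.24, 2.69 and 2.89 CPM in Cre-positive mice, from 21, 38 and 26 (log2 fold change 1.93, SE 0.375, edgeR adjusted p = 0.0479). The call was lost in 7 of 14 alternatives, where the adjusted p reached 0.381 without Cre-negative 1, 0.302 without Cre-negative 3, 0.124 without Cre-positive 2, 0.0794 without Cre-positive 3 and 0.132 with DESeq2. Of the 27 genes on the list of other mitosis genes that were tested in CD8 T cells, 18 had higher estimates (median 0.11) and none passed. Of the 28 other S phase genes 20 had higher estimates (median 0.06) and none passed.

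In regulatory T cells and other B cells the smallest p values belonged to S phase genes for the most part. Tk1, a thymidine kinase, had 5.72, 7.72 and 2.11 CPM in Cre-negative and 12.3, 10.5 and 5.21 CPM in Cre-positive regulatory T cells (log2 fold change 0.82, SE 0.41, edgeR adjusted p = 0.982). Cdc6 had 1.14, 6.43 and 0.703 CPM against 6.69, 4.2 and 6.37 CPM (1.04, SE 0.55, adjusted p = 0.984). Aurkb, the kinase of the chromosomal passenger complex, had 3.43, 6.43 and 2.11 CPM against 11.1, 9.45 and 1.74 CPM (0.89, SE 0.53, adjusted p = 0.984). These rest on 1 to 22 UMIs per mouse, and the groups overlapped for each gene.

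In other B cells Rrm2, the inducible subunit of ribonucleotide reductase, had 2.52, 6.01 and 4.08 CPM in Cre-negative and 6.66, 6.33 and 5.60 CPM in Cre-positive mice (log2 fold change 0.54, SE 0.23, edgeR adjusted p = 0.943). Ung, which removes uracil from DNA, stood at 9.56, 12.4 and 9.11 CPM against 13.3, 14.3 and 9.84 CPM (0.25, SE 0.16), and Mcm3 at 25.0, 28.1 and 28.9 CPM against 28.8, 31.3 and 28.3 CPM (0.10, SE 0.0937). The groups overlapped for all 3 genes.

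In germinal centre B cells the phases went opposite ways. All 22 G2/M genes had a lower estimate in Cre-positive mice (median log2 fold change -0.63) and 12 of 14 S phase genes a higher one (median 0.44), beside a median of -0.00819 over all 5629 genes tested. None passed. The other genes of the 2 phases did likewise: 23 of 27 other mitosis genes were lower (median -0.56) and 23 of 27 other S phase genes higher (median 0.35), again with no call. They were read in the same cells, so they are not independent of the members. Both medians of the members kept their sign under each left-out mouse (G2/M -1.37 to -0.38, S phase 0.24 to 0.59). Leaving out a mouse does not take away the weight of single cells in the others. Few cells stand behind these sums, and the 3 highest cells of Cre-negative 3 carried 73.4% of its G2/M UMIs and those of Cre-positive 3 carried 73.6%. Their part in the difference was not tested beyond the thinned and equally weighted balance above.

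Plk1, a mitotic kinase, had 30.2, 52.7 and 89.2 CPM in Cre-negative and 32.9, 19.3 and 14.1 CPM in Cre-positive germinal centre B cells (log2 fold change -1.26, SE 0.41, edgeR adjusted p = 0.999). Cdc6 had 21.3, 15.1 and 14.5 CPM against 40.6, 47.3 and 22.9 CPM (1.11, SE 0.36, adjusted p = 0.999). Ung had 19.5, 32.0 and 33.8 CPM against 49.3, 68.3 and 40.6 CPM (0.90, SE 0.31, adjusted p = 0.999). Cdc6 and Ung, also picked by smallest p, did not overlap between the groups, whereas Plk1 in Cre-positive 1 lay above Cre-negative 1. Here too the share of all genes with such groups was not counted.

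**Figure D5:**
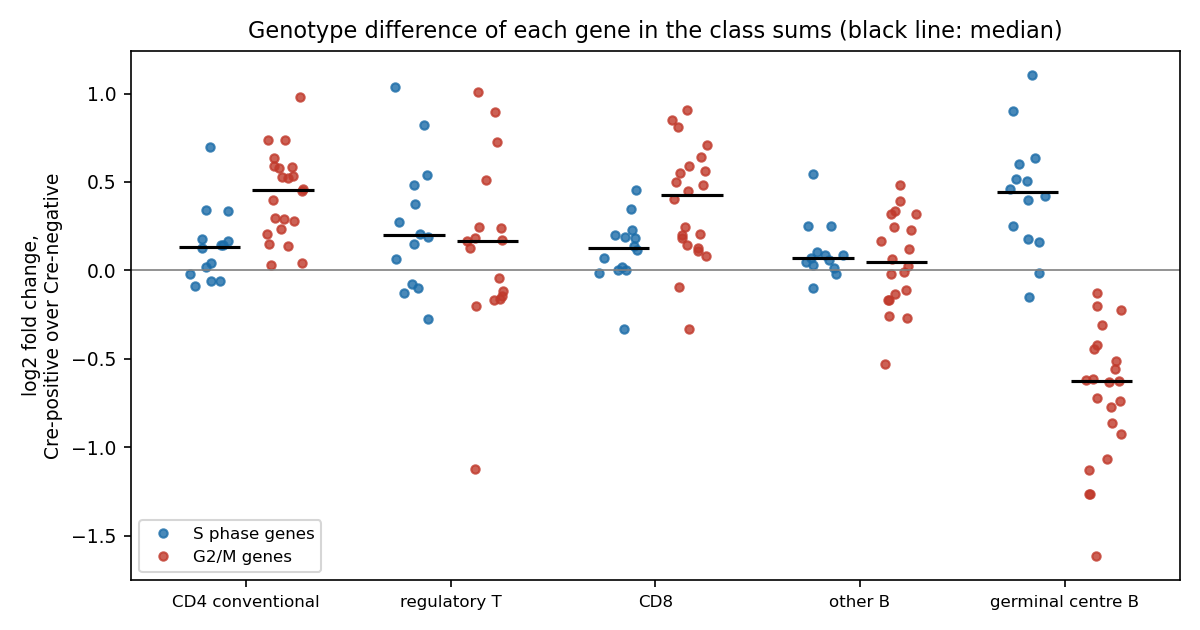
Log2 fold change (Cre-positive over Cre-negative) of each member in the summed UMIs of a class, S phase genes in blue and G2/M genes in red, with a black line at the median. No point passed an adjusted p of 0.05; the 22 G2/M genes lie above 0 in conventional CD4 T cells (median 0.46) and below 0 in germinal centre B cells (median -0.63).

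Whether the genotype effect differed between T cells and other B cells was tested directly as an interaction. It called 3 of 11899 genes for conventional CD4 T cells (0.0252%), 3 of 10905 for regulatory T cells (0.0275%) and 3 of 11532 for CD8 T cells (0.0260%), and no member. They were Gh, Hba-a2 and Fam3c, then Cxcl2, Tcf7 and Ly6a, then Fabp5, Trim59 and Apoe, named after their values were seen. The smallest p of a member was that of Ccnb2 in CD8 T cells, whose log2 fold change was 0.99 above that in other B cells (SE 0.40, edgeR adjusted p = 0.945).

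Cells with 3 or more of the genes were then set against the other cells of their class, within mice, for genes outside the 36. In conventional CD4 T cells 2564 of 10053 genes passed (25.5%), in regulatory T cells 1345 of 6765 (19.9%), in CD8 T cells 2070 of 9851 (21.0%), in other B cells 1654 of 9627 (17.2%) and in germinal centre B cells 968 of 3127 (31.0%). The cells differed in depth, in conventional CD4 T cells by medians of 5636 to 6679 UMIs against 4442 to 5812 for the whole class. The part of depth in these counts was not tested beyond thinning, which left 404, 169, 310, 222 and 214 genes. Thinning of conventional CD4 T cells left 11 other S phase, 15 other mitosis and 4 activation genes higher and 6 naive genes lower, and in germinal centre B cells 2 other S phase genes and 1 other mitosis gene higher and 1 light zone gene lower.

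Other replication and mitosis genes were higher in these cells in every class. In conventional CD4 T cells 26 of 27 other S phase genes (median log2 fold change 1.89) and 25 of 26 other mitosis genes (median 2.52) passed as higher, beside a median of -0.00944 over all genes tested. Hells, a chromatin remodeller, was at 35 ± 9.89 CPM in cells with 3 or more of the genes and at 6.86 ± 0.629 CPM in the other cells (SD, n = 6, log2 fold change 2.36, edgeR adjusted p = 1.52e-21). Cdca8, a subunit of the chromosomal passenger complex, was at 29.5 ± 6.56 and 1.66 ± 0.316 CPM (4.15, adjusted p = 1.01e-29). Both were higher in 6 of 6 mice. In CD8 T cells 28 of 28 other S phase and 19 of 23 other mitosis genes passed as higher, in regulatory T cells 15 of 16 and 9 of 10, in other B cells 21 of 24 and 25 of 26, and in germinal centre B cells 14 of 15 and 10 of 10.

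Genes of the naive state were lower in the T cells with cell cycle transcripts, by little at 3 genes and by more at 10. Of 10 naive genes, 10 passed as lower in conventional CD4 T cells, with a median log2 fold change of -0.33 at 3 or more genes and -1.85 at 10 or more. S1pr1, the receptor by which lymphocytes leave the node, was at 422 ± 52.4 against 571 ± 51.2 CPM (log2 fold change -0.44, edgeR adjusted p = 8.31e-19), and Lef1, a transcription factor of naive T cells, at 570 ± 59.5 against 742 ± 59.8 CPM (-0.38, adjusted p = 8.18e-18). Both were lower in 6 of 6 mice. In CD8 T cells 8 of 10 passed as lower at 3 genes (median -0.25) and 10 of 10 at 10 genes (median -1.65). In regulatory T cells 5 of 10 did so, with a median of -0.44.

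Activation genes went the other way in conventional T cells. For conventional CD4 T cells 11 of 13 passed as higher (median log2 fold change 0.58) and none as lower. Cxcr3, a chemokine receptor of effector T cells, was at 16.5 ± 6.30 against 6.97 ± 3.06 CPM (1.25, edgeR adjusted p = 6.70e-11) and Cd44 at 53.5 ± 4.64 against 35.8 ± 2.46 CPM (0.58, adjusted p = 1.94e-10). In CD8 T cells 10 of 12 passed as higher, led by the inhibitory receptor Pdcd1 at 5.01 ± 2.34 against 0.978 ± 0.561 CPM (2.38, adjusted p = 5.13e-10). Regulatory T cells were mixed, with 5 of 13 higher and 5 lower. Ctla4 was lower there, at 512 ± 98.3 against 750 ± 80.0 CPM (-0.56, adjusted p = 5.99e-07), and Mif was higher, at 547 ± 107 against 268 ± 24.3 CPM (1.02, adjusted p = 3.42e-11).

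In germinal centre B cells, cells with 3 or more of the genes had less of the light zone genes, which mark the part of the germinal centre where B cells are selected. Of 6 tested, 4 passed as lower and none as higher (median log2 fold change -0.89), and at 10 or more genes 7 of 8 did. Fcer2a, the IgE receptor CD23, was at 80.8 ± 34.0 against 420 ± 135 CPM (-2.40, edgeR adjusted p = 3.94e-10) and Cd83 at 161 ± 63.5 against 324 ± 153 CPM (-1.0, adjusted p = 3.21e-05), each lower in 6 of 6 mice. Fcer2a was not particular to germinal centre B cells: it was detected in 78.4% of other B cells and 52.1% of germinal centre B cells. Dark zone genes mark the part where germinal centre B cells divide. Of a list of 6, Foxp1, Foxo1 and Cxcr4 passed as lower, and genes that are also markers of the gate are left out. The named genes are therefore part of the list, and the direction of the dark zone genes as a set cannot be read from them. Naive genes were lower too, 4 of 5, with Satb1 at 32.2 ± 19.9 against 336 ± 84.7 CPM (-3.36). The gate asks for 2 of 7 markers, and the cells with 0 to 2 of the 36 genes had 3 or more UMIs of those markers in 45.5%, against 99.0% of cells with 10 or more. Whether other B cells inside the gate had a part in these differences was not tested.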

How the data were processed

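Droplet single-cell RNA sequencing measured 6 libraries, 1 per mouse. The authors deposited unnormalized counts of UMIs for each gene in each barcode. Cell Ranger 6.1.2 and mm10 are named in the submitters' processing notes, and which annotation was used is not given in the sources used here. Cells with at least 500 UMIs, at least 300 genes and at most 10% mitochondrial UMIs were kept. The barcodes with the highest Scrublet scores, 480 to 914 per library at a fixed rate set by its size, were removed, because Scrublet's own threshold marked no cell in 1 library. Classes were gated on marker UMIs. For comparisons across depths, cells were thinned to 2000 UMIs. Counts were summed per mouse and class (at least 20 cells per mouse) and tested with edgeR 4.0.16 (TMM, filterByExpr, robust quasi-likelihood test, Benjamini-Hochberg adjusted p of 0.05). The interaction and the comparison of cells within a class used the mouse as a block, and the SE is the log2 fold change over the square root of F. CPM are counts scaled to the TMM-adjusted total. Shares were compared with exact two-sided permutation tests over every arrangement of the mice. Scripts were tested on simulated data. Clopper-Pearson intervals are at 95%. Mice are separate samples, and p-values between genotypes measure the spread between them. Those of the sign-flip tests, the interaction and the comparison of cells within a class measure how differences within a mouse vary between mice.

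The alternatives were DESeq2 1.42.0, RLE size factors, no low-count filter, other gates and cell filters, a replicate block, other gene thresholds and leaving out each mouse. Values per mouse are given for the 3 members of smallest p in each class and for Mki67, Top2a, Pcna and Mcm5, and up to 4 genes per list by smallest p are named. The members and lists were chosen with earlier results of these data known. The 10-gene threshold, equal weighting of cells and Aspm were added after seeing the data. The floxed gene is not reported here.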

Additional observations from a re-analysis of the deposited data

How the results depend on the processing

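The genotype difference in the share with 3 or more genes moved by less than 1 SD in all 81 alternatives and changed sign in 30. The SD was that of the mice at full depth with 3 or more genes. Thinned, or at 5 or 10 or more genes, shares outside germinal centre B cells were so small that such a move was hardly possible. The S phase difference between genotypes moved in 9 of 86. In conventional CD4 T cells it was 0.342 points at a 5% mitochondrial limit, -8.11 with stricter gates, 0.927 with cells weighted equally and -1.49 so weighted at 10 or more genes. In CD8 T cells it was -14.2 with stricter gates, in regulatory T cells 18 (cells weighted equally, 10 or more genes, 1 mouse against 2), and in germinal centre B cells 1.86 thinned, 2.36 with cells weighted equally and 8.49 so weighted at 10 or more genes.

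Differences between classes passed more often without thinning. Unthinned, they were 2.78 (regulatory T minus CD4), 6.69 (CD8 minus CD4), -3.50 (other B minus CD4), 3.91 (CD8 minus regulatory T, reversed), -6.27 (other B minus regulatory T) and -10.2 (other B minus CD8). Germinal centre B cells exceeded CD4, regulatory T, CD8 and other B cells by 46.3, 43.5, 39.6 and 49.8 unthinned, by 32.9, 32.0, 32.8 and 33.0 at 5 or more genes, and by 35.7, 34.8, 35.5 and 36 at 10 or more unthinned. At those 2 thresholds regulatory T minus CD4 was 0.852 and 0.910, CD8 minus regulatory T -0.724 and -0.700, and other B minus regulatory T -0.904 and -1.21. With 6 mice the sign-flip p cannot go below 0.03125, so passing after adjustment depends on how many of the 10 pairs reach that value. Calls therefore do not rank the differences by size. Why the differences changed in size was not tested.

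Genes called between genotypes, in the order CD4, regulatory T, CD8, other B and germinal centre B, were 33, 16, 61, 54 and 26 with no low-count filter. Of these classes DESeq2 called 4, 0, 5, 6 and 3. Stricter gates gave 6 in CD4, 10 in CD8 and 0 in other B cells. A CD4 gate with no Cd4 UMI gave 3, kept doublets 8 in regulatory T cells, a minimum of 2000 UMIs 3 in CD8 and a 5% mitochondrial limit 4 in other B cells. Leaving out 1 mouse gave 1 to 9 (9 without Cre-positive 3), 0 to 8 (8 without Cre-positive 3), 1 to 18 (18 without Cre-positive 1, 1 without Cre-negative 1), 1 to 5 and 0 to 4. Members called were 1 in CD4 and 3 in CD8 with no filter and with stricter gates, and 0 to 1 in CD4, regulatory T and CD8 with 1 mouse left out. With no filter the interaction called 33, 14 and 39 genes and 1 member (Cenpf, CD8). Cells with 3 or more genes against the rest gave 404, 169, 310, 222 and 214 genes thinned, 4173, 2210, 3742 and 3184 at 5 or more (first 4 classes), and 4437 (CD4), 4086 (CD8) and 3386 (other B) at 10 or more.

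Same-numbered mice had correlations in CD4 of 0.0214, -0.0669 and 0.188, and the other pairs ran from -0.193 to 0.181. They were taken on deviations from a mean of 3 mice, which ties the values together. Whether replicate numbers pair the mice therefore cannot be read from them. A replicate block called 9, 1, 39 and 1 genes in CD4, regulatory T, CD8 and germinal centre B cells, with 1 member in CD4 and 2 in CD8. Germinal centre sums at the 5% mitochondrial limit had under 20 cells in a mouse and could not be fitted. Of 486 alternatives for named genes, 7 lost and 5 gained a call. The germinal centre results rest on 34 to 74 cells per mouse.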

Other observations

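Regulators of the step into the cycle differed in cells with 3 or more of the genes. In conventional CD4 T cells 9 of 19 G1 regulators and inhibitors were higher and 5 lower. Tfdp1, the partner of E2F factors, was at 36.8 ± 7.04 against 16.1 ± 2.42 CPM (SD, n = 6, log2 fold change 1.17, edgeR adjusted p = 6.12e-14), and Btg1, an antiproliferative gene, at 1886 ± 157 against 2342 ± 104 CPM (-0.31, adjusted p = 2.57e-14). In germinal centre B cells 2 of 8 were higher and 4 lower, with Btg1 at 693 ± 197 against 2139 ± 233 CPM (-1.67, adjusted p = 1.98e-11) and Cdkn1b, the inhibitor p27, at 22.4 ± 22.1 against 87.4 ± 44.5 CPM (-2.01, adjusted p = 0.000101).

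Immediate early genes, which respond within minutes to receptor signals or handling, were lower in 6 of 8 in other B cells and in 4 of 7 in germinal centre B cells, with none higher. Junb was at 347 ± 160 against 1057 ± 171 CPM in germinal centre B cells (log2 fold change -1.70, edgeR adjusted p = 0.000691) and at 1120 ± 118 against 1523 ± 108 CPM in other B cells (-0.45, adjusted p = 1.77e-19).

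Germinal centre B cells with 10 or more of the genes had a median of 17780 UMIs against 4994 with 0 to 2. Of the former, 28.6% had 3 or more UMIs of erythroid markers, 96.2% of plasma cell markers and 79.0% of myeloid markers, against 2.97%, 34.7% and 38.6%. In CD8 T cells 19.8% and 2.54% had 3 or more UMIs of NK markers. The part of depth in these shares was not tested.

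Of the 555 cells with 10 or more genes, 166 fell in no class: 49 had markers of both lineages, 58 T cell markers without a class and 59 neither. Among cells passing the filters, the Scrublet rule removed 8.05% of all, 14.7% of those with 3 or more genes, 7.65% of those with 10 or more and 32.5% of ungated cells with 3 or more.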
